A study of Mus musculus with 6 samples.

Results

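The cone opsins are the light-sensitive proteins of cone photoreceptors, and in the mouse they are encoded by 2 genes, Opn1sw and Opn1mw. Each gene was represented by all transcript clusters (groups of exon array probes along a putative transcript) that carried its symbol and no other, which gave 1 cluster per gene, tc6952362 for Opn1sw and tc7011987 for Opn1mw, among 17468 genes with a cluster bright enough to be kept. The pair was selected on its log2 signals in these same knockout and wild-type arrays, so the difference between genotypes is described here without a test. RNA came from retinas of C57BL/6 mice labelled Sall3 knockout or wild-type, of mixed sex; the tissue was dissected at postnatal day 0 and cultured on floating filters over 7 days. Each of the 6 samples, 3 per genotype, held the RNA of 3 pooled retinas and was hybridised to its own array. The nature of the Sall3 allele is not given in the sources used here. The samples are called triplicates without a statement that litters or culture runs were separate. SDs therefore measure the spread between these pools, which may be technical. SEs and intervals come from limma, which moderates the variance of each cluster towards a value estimated from all clusters. For genes with little spread, such an SE can exceed the spread between the pools.

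An opsin binds a vitamin A derivative, and its activation by light starts a cascade of transducin, phosphodiesterase and cyclic nucleotide gated channels. Opn1sw encodes the S opsin, tuned to ultraviolet light in the mouse, and Opn1mw the M opsin, tuned to green light and located on the X chromosome. Many mouse cones hold both pigments, with S opsin predominant in the ventral and M opsin in the dorsal retina, and S opsin appears earlier in development. Thyroid hormone receptor beta is required for M opsin and represses S opsin in the mouse. Sall3 encodes a zinc finger factor of the Spalt family, whose Drosophila members take part in the choice of opsin in that eye.

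The bases before each start site are shown because the factors that choose between the opsins act on this DNA. Both windows hold the 250 bases upstream of the start in RefSeq (GRCm38.p6), written in the direction of transcription, at chr6:29380514-29380763 on the minus strand for Opn1sw and chrX:74127216-74127465 on the plus strand for Opn1mw. Capitals mark 4 motifs searched on both strands, chosen after the sequences had been read.
Opn1sw: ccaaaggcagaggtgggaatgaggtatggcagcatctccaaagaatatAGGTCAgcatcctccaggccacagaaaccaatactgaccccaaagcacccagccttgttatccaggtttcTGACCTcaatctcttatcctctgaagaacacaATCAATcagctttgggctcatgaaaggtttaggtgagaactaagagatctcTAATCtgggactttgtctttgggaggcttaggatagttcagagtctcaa
Opn1mw: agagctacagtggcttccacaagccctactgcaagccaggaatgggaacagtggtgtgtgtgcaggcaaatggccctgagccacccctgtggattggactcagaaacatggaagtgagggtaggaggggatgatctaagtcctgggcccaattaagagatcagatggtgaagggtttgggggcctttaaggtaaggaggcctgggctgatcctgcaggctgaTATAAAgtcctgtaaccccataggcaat

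The Opn1sw window contained AGGTCA, a sequence bound by nuclear receptors, 202 to 197 bases before the start, and its reverse complement TGACCT 132 to 127 bases before it. It also held ATCAAT, the core bound by Onecut factors, at 100 to 95 bases, and TAATC, a core bound by homeodomain factors of the Crx and Otx2 type, at 49 to 45 bases. The Opn1mw window contained TATAAA, the TATA box sequence, 28 to 23 bases before the start and none of the other 3 motifs. No match overlapped another. Of 32536 distinct upstream windows of this length, 14.0% held AGGTCA on either strand and 1.37% held at least 2 copies, 6.60% held ATCAAT, 19.8% TAATC and 12.3% TATAAA. A match describes the letters of the window and not a bound site.

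On these arrays some libraries stood apart. On the first principal component, with 31.9% of the variance, knockout 1 had a score of -98.5 and wild-type 3 one of 62.5, and the other arrays had scores from 2.87 to 11.9. The sex-linked genes also separated knockout 1. Xist, the RNA that silences one X chromosome in females, had a log2 signal of 6.66 in knockout 1 and of 12.01 to 12.26 in the other 5 arrays. The Y-linked demethylase gene Kdm5d stood at 7.26 in knockout 1 and at 3.40 to 3.62 elsewhere, and the Y-linked Uty at 7.19 against 3.71 to 4.78. Every sample is labelled as of mixed sex, whereas the Y-linked signal was high in knockout 1 alone. The opsin changes are therefore also given without knockout 1, and the part of sex in them was not tested.

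**Figure D1:**
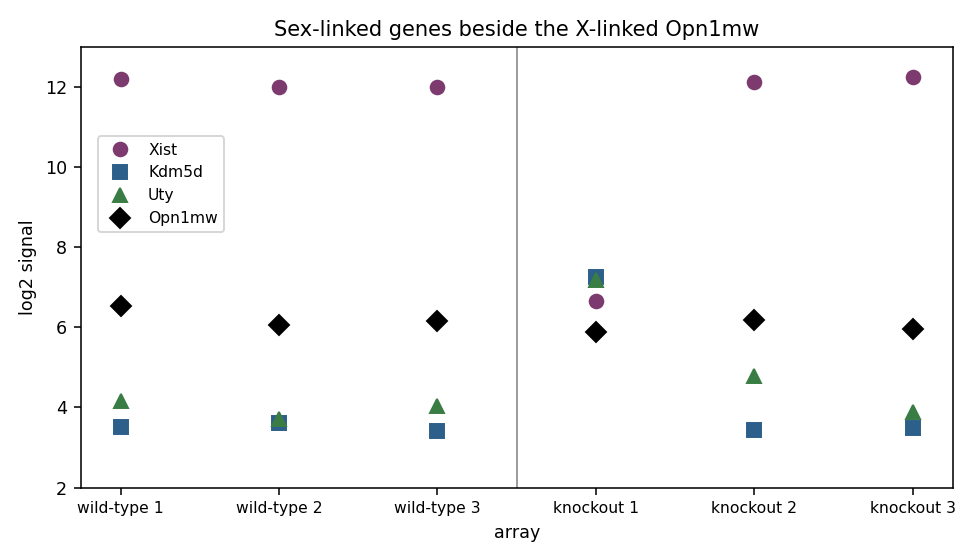
Log2 signal (vertical axis) of Xist, Kdm5d, Uty and Opn1mw in each of the 6 arrays (horizontal axis), 1 point per array. Knockout 1 has Xist at 6.66 and Kdm5d at 7.26, away from the other arrays, and its Opn1mw value of 5.89 is the lowest of the 6.

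Opn1sw had log2 signals of 10.70, 9.74 and 9.39 in wild-type 1, 2 and 3, and of 7.81, 7.77 and 7.22 in knockout 1, 2 and 3. The genotypes did not overlap, and 1.58 log2 units separated the highest knockout from the lowest wild-type array. The wild-type mean was 9.94 ± 0.68 and the knockout mean 7.60 ± 0.33 (SD, n = 3), a change, knockout minus wild-type, of -2.35 (SE 0.37, 95% interval -3.25 to -1.44). On a linear scale this is 5.08-fold lower in knockout, or 19.7% of the wild-type geometric mean, with single knockout arrays at 22.7%, 22.2% and 15.1% of it. Only 1 of the 17468 genes, the immediate early gene Fos, had a more negative change. In bulk RNA, fewer cells of a type and less RNA per cell cannot be told apart.

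Opn1sw also varied among the wild-type explants. Wild-type 1 stood at 169% of the wild-type geometric mean, wild-type 2 at 87.0% and wild-type 3 at 68.1%. The wild-type SD of Opn1sw exceeded that of 99.6% of genes, and its knockout SD that of 94.7%. The change was -1.97 without wild-type 1, -2.62 without wild-type 3 and -2.45 without knockout 1.

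Opn1mw had log2 signals of 6.54, 6.07 and 6.15 in wild-type 1, 2 and 3, and of 5.89, 6.19 and 5.95 in knockout 1, 2 and 3. The groups overlapped, because knockout 2 lay above wild-type 2 and wild-type 3. The wild-type mean was 6.25 ± 0.25 and the knockout mean 6.01 ± 0.16 (SD, n = 3), a change of -0.24 (SE 0.16, 95% interval -0.64 to 0.17). The knockout level was 84.8% of wild-type, and the interval reached from 1.56-fold lower to slightly higher. A total of 624 genes, Opn1mw included, had a change at least as negative. The value was -0.09 without wild-type 1, the array highest for both opsins, -0.18 without knockout 1, and -0.33 without wild-type 2, so its size depended on single arrays.

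The probes of the 2 clusters differ, so their levels cannot be compared with each other, but their difference within an array can be compared between arrays. Opn1sw minus Opn1mw was 4.16, 3.68 and 3.24 in wild-type 1, 2 and 3, and 1.91, 1.58 and 1.26 in knockout 1, 2 and 3 (log2). Every knockout array had a smaller difference than every wild-type array. The wild-type mean of this difference was 3.69 ± 0.46 and the knockout mean 1.59 ± 0.33 (SD, n = 3), a shift of -2.11 on the log2 scale or 4.31-fold. This shift comes from the contrast that chose the pair and is a description. How far the dimmer Opn1mw signal lies above the array background is unknown, and a background makes the fold of a dim cluster smaller.

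**Figure D2:**
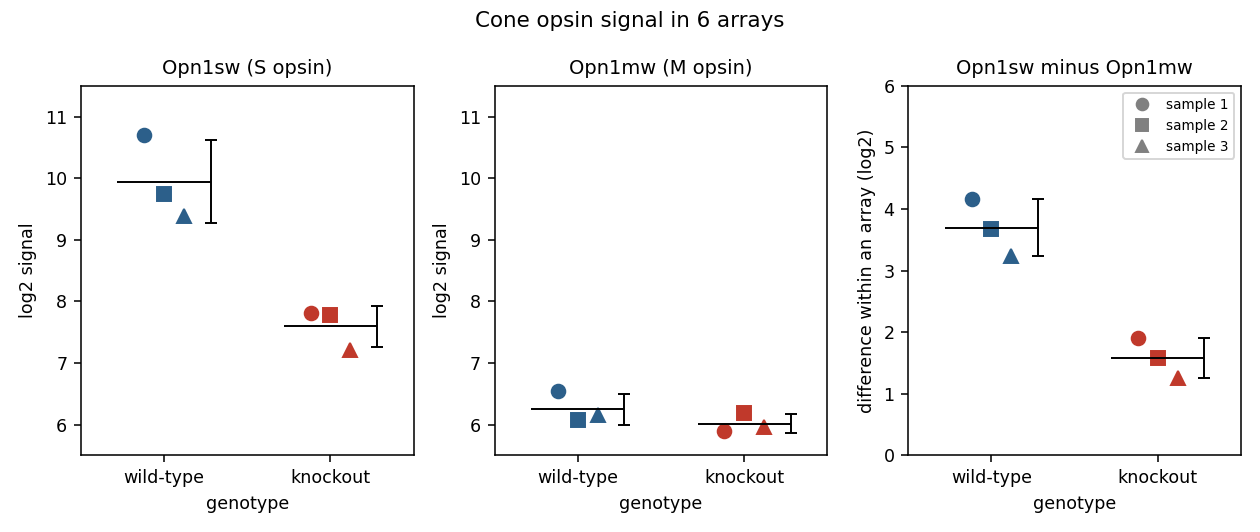
Log2 signal of Opn1sw and Opn1mw, and their difference within each array, by genotype; points are arrays (marker shape gives the sample number), the horizontal line is the group mean and the bar 1 SD on either side. The Opn1sw points of knockout and wild-type are 1.58 apart at their closest, while the Opn1mw points overlap.

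In the fit across all 75632 kept clusters, limma with Benjamini-Hochberg adjustment called 0 clusters at an adjusted p under 0.05 (0%), and neither opsin was among calls. At an unadjusted p under 0.05, 2458 clusters (3.25%) were lower and 2511 (3.32%) higher in knockout. Among the 17468 genes, each taken at its brightest cluster, the groups did not overlap with knockout lower in 11.2% and with knockout higher in 1.70%, and 1.05% were lower and 0.544% higher at an unadjusted p under 0.05. The median change over all genes was -0.01, and 54.7% of genes had a value below 0. Opn1sw is one of the genes whose groups did not overlap and Opn1mw is not, and since this contrast chose both, nothing is read from that.

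The other genes of the cone cascade, which act downstream of both opsins, spread between these values. Of 9 genes in the list, all measured, 0 were called (limma, adjusted), 8 had a lower and 1 a higher value in knockout, and 4 had groups that did not overlap, all with knockout lower. Over all genes, 54.7% had a lower value, and the groups did not overlap with knockout lower in 11.2% and with knockout higher in 1.70%. The list median was -0.20, against -0.01 over all genes, and it stayed between -0.25 and -0.17 under every alternative run. At an unadjusted p under 0.05 there were 3 lower and 0 higher, against 1.05% and 0.544% of all genes. Pde6c, which encodes the catalytic part of cone phosphodiesterase, stood at 9.19, 9.05 and 8.80 in wild-type, at 8.03 in knockout 2, at 7.76 in knockout 3 and between these values in knockout 1, a change of -1.08 (SE 0.14). Its groups did not overlap, and its change was smaller in size than that of Opn1sw on the log2 scale. Arr3, the cone arrestin that quenches activated opsin, stood at 6.75, 6.74 and 6.57 in wild-type and 6.35, 6.21 and 5.99 in knockout, a change of -0.51 (SE 0.13), again without overlap.

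The remaining cascade genes had smaller values. Cnga3, a channel subunit, had a change of -0.25 (SE 0.09) and Gngt2, the gamma subunit of cone transducin, one of -0.20 (SE 0.11), and the groups of both did not overlap. The exchanger gene Slc24a2 at -0.25 (SE 0.14) and the transducin alpha subunit Gnat2 at -0.18 (SE 0.11) had overlapping groups. The value of Slc24a2 was -0.18 without wild-type 1 and that of Gnat2 was -0.11. Pde6h, the inhibitory phosphodiesterase subunit, stood at -0.04, Gnb3, the transducin beta subunit, at -0.01, and Cngb3, the second channel subunit, at 0.12. Gnb3 changed sign in 5 alternatives, other scalings among them, and Cngb3 in 2, of which 1 left out knockout 1 and put it at -0.04. The change of Opn1mw lay inside the range of these 7 genes and that of Opn1sw outside the range of all 9.

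Array by array, the order within each genotype was counted over the cascade genes and over all 17468 genes. Wild-type 1, the highest array for Opn1sw, was the highest wild-type array in 6 of the 9 cascade genes, or 66.7%, and in 20.4% of all genes. Wild-type 3 was the lowest wild-type array in 7 of 9, or 77.8%, and in 55.7% of all genes. Knockout 3, the lowest array for Opn1sw, was the lowest knockout array in 8 of 9, or 88.9%, and in 36.5% of all genes, whereas knockout 1 was the highest in 7 of 9, or 77.8%, close to its 75.3% over all genes. These genes come from the same RNA pools and are not independent of each other, and whether any of these orders is particular to cone genes was not tested.

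**Figure D3:**
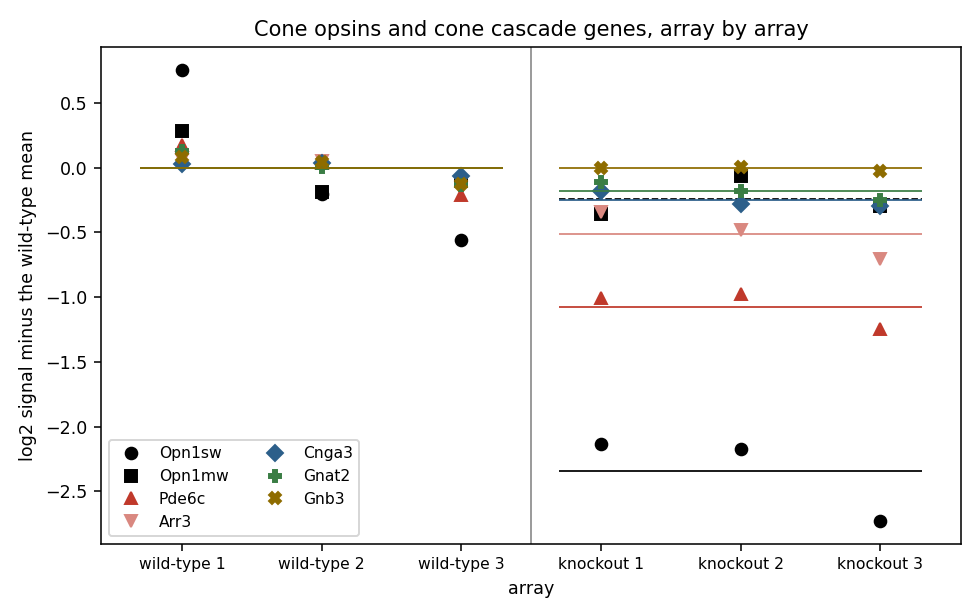
Log2 signal minus the wild-type mean (vertical axis) in each array (horizontal axis) for both opsins and 5 cone cascade genes; points are arrays and horizontal lines group means, dashed for Opn1mw. In knockout the mean of Opn1sw is at -2.35, of Pde6c at -1.08, of Arr3 at -0.51 and of Opn1mw at -0.24.

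Opsins outside the cones had values close to 0. Of 6 genes listed, 4 were measured and 0 were called (limma, adjusted; 0 at an unadjusted p under 0.05). Opn4, the melanopsin of intrinsically photosensitive ganglion cells, stood at 5.81, 5.84 and 5.78 in wild-type and 5.70, 5.77 and 5.76 in knockout, a change of -0.06 (SE 0.09). Its groups did not overlap, as in 11.2% of all genes with knockout lower, although the change was within its moderated SE. The SDs of Opn4 were 0.03 in wild-type and 0.04 in knockout. Opn5, or neuropsin, stood at 0.07 (SE 0.13), Rrh, or peropsin, at 0.00 (SE 0.12) and the retinal G protein coupled receptor Rgr at 0.00 (SE 0.15), and the values of these 3 changed sign in at least 2 alternatives. Opn3 shared its cluster with another gene and was not analysed here. The list median was 0.00.

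Transcription factors known to act on opsin genes were compared next. Of 18 genes listed, 16 were measured and 0 were called (limma, adjusted), 11 with a lower and 5 with a higher value in knockout, and the median was -0.04, with -0.01 both as deposited and after median centring, -0.02 without knockout 2 and -0.08 without knockout 3. The groups did not overlap in 4 genes with knockout lower and in 1 with knockout higher, against 11.2% and 1.70% of all genes. Over all genes, 54.7% had a lower value in knockout. At an unadjusted p under 0.05 (limma), 1 was lower and 1 higher, against 1.05% and 0.544% of all genes. Beside the genes with the smallest p, 7 further genes are given for their known roles, a choice made after their values had been seen. Thrb, thyroid hormone receptor beta, stood at 8.68, 8.69 and 8.67 in wild-type and 8.68, 8.73 and 8.64 in knockout, a change of 0.01 (SE 0.09, 95% interval -0.21 to 0.22). Rxrg, its retinoid receptor partner, stood at 0.04 (SE 0.13), and the values of both changed sign in at least 1 alternative. Crx, the homeodomain factor that activates photoreceptor genes, stood at -0.03 (SE 0.10) and Otx2, the related factor upstream of it, at -0.09 (SE 0.09), the latter without overlap.

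Onecut1 and Mef2d had the largest changes of this list in either direction. Onecut1, a factor that in the mouse acts on early cone and horizontal cell formation, stood at 8.49, 8.50 and 8.64 in wild-type and 7.95, 7.73 and 8.01 in knockout, a change of -0.64 (SE 0.12) that did not pass (limma adjusted p = 0.567), and its second kept cluster was lower too. Mef2d, a factor that binds photoreceptor enhancers together with Crx, stood at 10.11, 10.16 and 9.82 in wild-type and 10.60, 10.33 and 10.90 in knockout, a change of 0.58 (SE 0.18) that did not pass either (limma adjusted p = 0.678). The groups of both genes did not overlap. Nr2f2, a receptor of the COUP-TF group, stood at -0.13 (SE 0.09), with its second kept cluster on the other side of 0, and Nrl, the rod determinant, at -0.10 (SE 0.09). The receptors Rora at -0.04 and Rorb at -0.12 and the corepressor gene Samd7 at 0.05 had overlapping groups. The targeted gene Sall3 had a change of -0.16 (SE 0.10) with overlapping groups. This value does not check the labels, since the allele is not given and may leave the probed sequence in the RNA.

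**Figure D4:**
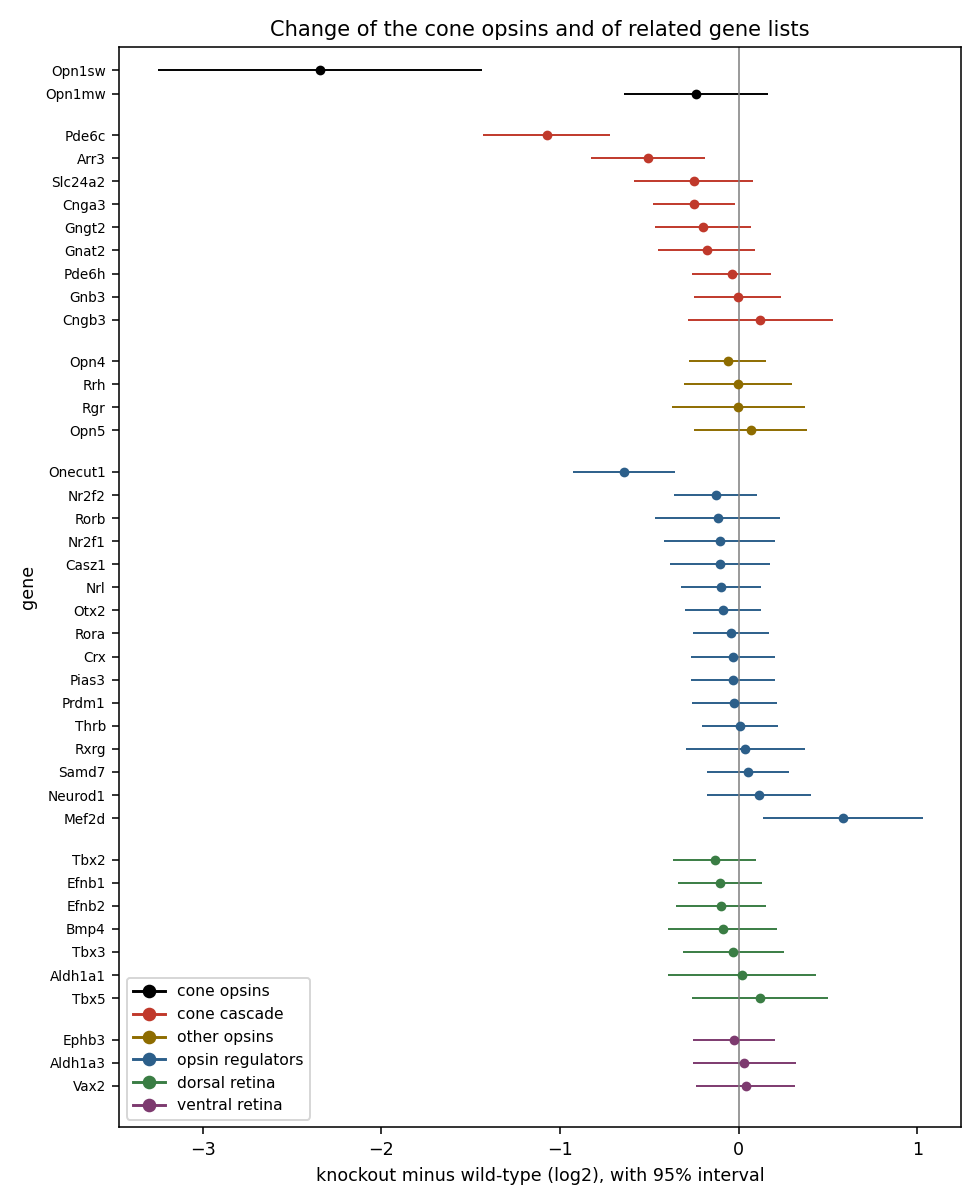
Log2 change of knockout relative to wild-type (horizontal axis) of each gene (vertical axis) of the cone opsins and of 5 lists; points are estimates from 3 arrays per genotype and bars 95% intervals from limma. Opn1sw at -2.35 lies outside the range of the lists shown, from -1.08 for Pde6c to 0.58 for Mef2d.

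Because thyroid hormone sets the balance of the 2 opsins in the mouse, genes that supply it were examined. Of 6 genes listed, 4 were measured and 0 were called (limma, adjusted; 0 at an unadjusted p under 0.05), with a median of 0.03 that changed sign in 3 alternatives. Dio2, the deiodinase that makes the active hormone, stood at 7.29, 7.33 and 7.00 in wild-type and 7.93, 7.22 and 7.03 in knockout, a change of 0.19 (SE 0.26), and knockout 1 alone was above the wild-type arrays. Dio3, the deiodinase that inactivates the hormone, stood at -0.02 (SE 0.09). The transporter gene Slc16a10 stood at 0.09 (SE 0.17) and the hormone carrier Ttr at -0.05 (SE 0.09), both with overlapping groups.

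S opsin is ventral and M opsin dorsal in the mouse retina, so genes of either side were set beside the opsins. Of 7 dorsal genes, all measured, 0 were called (limma, adjusted; 0 at an unadjusted p under 0.05) and the median was -0.09, or 0.00 without knockout 2. The dorsal T-box factors Tbx5, Tbx2 and Tbx3 stood at 0.12 (SE 0.15), -0.14 (SE 0.09) and -0.03 (SE 0.12), and the groups did not overlap for Tbx2 alone. Such groups, with knockout lower, were found in 11.2% of all genes. Bmp4, the signal of the dorsal eye, stood at -0.09, the dorsal retinoic acid enzyme Aldh1a1 at 0.02 and the ephrins Efnb1 and Efnb2 at -0.10 both. The values of 4 of the 7 dorsal genes changed sign in at least 1 alternative. Of 4 ventral genes, 3 were measured and 0 were called (limma, adjusted; 0 at an unadjusted p under 0.05). The ventral homeodomain factor Vax2 stood at 9.36, 9.57 and 9.37 in wild-type and 9.55, 9.36 and 9.52 in knockout, a change of 0.04 (SE 0.11). Aldh1a3, the ventral retinoic acid enzyme, stood at 0.03 (SE 0.12) and the receptor gene Ephb3 at -0.02 (SE 0.09). The groups of all 3 ventral genes overlapped and each value changed sign in at least 1 alternative. Wild-type 1, with the highest signal of both opsins, had a ventral list median of -0.07 relative to the wild-type mean, the lowest of the wild-type arrays, and a dorsal one of 0.01.

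Genes of the chromophore cycle, which regenerates the vitamin A derivative that opsins bind, had a median of -0.01 over the 9 measured of 11 listed, and 0 were called (limma, adjusted; 0 at an unadjusted p under 0.05). The groups did not overlap for Rbp3, the retinoid carrier between photoreceptors and pigment epithelium, at -0.06 (SE 0.09), and for Abca4, the retinoid transporter of outer segments, at -0.15 (SE 0.09), both with knockout lower. Over all genes, 11.2% had groups without overlap and knockout lower. Lrat, an enzyme of the pigment epithelium and the lowest value of the list, stood at -0.19 (SE 0.22) with overlapping groups. Rod cascade genes had a median of 0.06 over 7 (0.02 to 0.09 over the alternatives), with overlapping groups in every gene and 0 called (limma, adjusted; 0 at an unadjusted p under 0.05). Gngt1, the gamma subunit of rod transducin, stood at 0.58 (SE 0.26) and Cnga1, a rod channel subunit, at 0.49 (SE 0.34), and under the alternatives their lowest values were 0.35 and 0.28.

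Markers of other cells of the explant were read beside the opsins. For comparison, 54.7% of all genes had a lower value in knockout, and in 11.2% the groups did not overlap with knockout lower. List medians were 0.04 for bipolar, 0.02 for amacrine and 0.00 for Müller glia genes and -0.01 for pigment epithelium, and each of these changed sign in at least 1 alternative. Ganglion cell genes stood at -0.23 and microglia genes at -0.19, with lower values in 5 of 5 in each list. The ganglion cell values ranged from -0.42 for the neurofilament gene Nefl to -0.04, with Pou4f1 at -0.07 (SE 0.10). The ganglion cell median was -0.14 without knockout 2, and the microglia median was -0.07 without knockout 3, -0.31 without knockout 1 and -0.30 both without wild-type 3 and with array weights. Horizontal cell genes also had lower values in 5 of 5, with a median of -0.30, or -0.17 without wild-type 2. Relative to the wild-type mean, the horizontal list median was -0.23, -0.32 and -0.33 in knockout 1, 2 and 3. In wild-type 1, 2 and 3 it was -0.06, 0.10 and -0.04. Immediate early genes, induced within minutes of stimulation, had lower values in 6 of 6, without overlap in any, with a median of -0.98. Relative to the wild-type mean, their list median was -0.80, -1.11 and -1.01 in knockout 1, 2 and 3. This list, like the others, was chosen with earlier results of these data known, so its counts are a description. In this list wild-type 3 was the highest array, at 0.48 relative to the wild-type mean, and wild-type 1 the lowest of the wild-type arrays at -0.34, the reverse of their order for Opn1sw. Limma called 0 genes of these 8 lists after adjustment, with 9 lower and 1 higher at an unadjusted p under 0.05. Over all genes these shares were 1.05% and 0.544%. Among the genes with the smallest p in these lists, none of which passed after adjustment, the horizontal cell factors Lhx1 and Onecut3 stood at -0.77 (SE 0.11) and -0.41 (SE 0.12). The neurofilament gene Nefm stood at -0.41 (SE 0.12), the glutamate decarboxylase gene Gad2 at 0.34 (SE 0.13), the immediate early genes Egr1 and Fos at -2.07 (SE 0.23) and -2.64 (SE 0.35), and Dusp1 and Junb, also of that list, at -0.85 (SE 0.16) and -0.67 (SE 0.17). Gad1, the other glutamate decarboxylase gene, stood at -0.09 (SE 0.09) without overlap, and was the 1 lower value among the 5 amacrine genes. The part of these cells and programmes in the opsin values was not tested.

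The genomic neighbours of each opsin were compared as well. The nearest named genes around Opn1sw are Fam71f1 and Calu on one side and Ccdc136 and Flnc on the other. Ccdc136, a coiled-coil protein gene also used as a cone marker, stood at 7.98, 7.83 and 7.80 in wild-type and 7.65, 7.61 and 7.69 in knockout, a change of -0.22 (SE 0.10) without overlap. Over all genes, 11.2% had groups without overlap and knockout lower. Calu stood at 0.00 (SE 0.10), Flnc at -0.09 (SE 0.11) and Fam71f1 at -0.11 (SE 0.11), all with overlapping groups. Around Opn1mw, Hcfc1 stood at -0.06 (SE 0.10), Irak1 at -0.03 (SE 0.09) and Tktl1 at 0.00 (SE 0.09), each with overlapping groups, and Tex28 was below the level filter. Limma called 0 of these genes after adjustment, and 0 at an unadjusted p under 0.05.

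Likeness to each opsin was measured as the root mean square distance between profiles over the 6 arrays after each gene was scaled to mean 0 and SD 1, where 0 means the same shape. Only genes whose range reached 0.5 times that of the opsin were compared. For Opn1sw this left 72 genes, and the 8 nearest were Bsnd at a distance of 0.323, Angpt2 at 0.366, Egr1 at 0.541, Kif2b at 0.543, Fos at 0.568, Gm7827 at 0.596, Wfdc10 at 0.631 and Npas4 at 0.656. All had lower values in knockout, from -1.02 for Gm7827 to -2.64 for Fos. This direction was largely set in advance, because the distance includes the difference between genotypes that chose the pair. Egr1, Fos and Npas4, which are immediate early genes, shared the difference between genotypes with Opn1sw but had their highest wild-type value in wild-type 3, where Opn1sw was lowest. Pde6c, whose range of 1.42 was below the limit, had a distance of 0.157. With no range limit, an alternative chosen after seeing the data, Pde6c ranked 5 of 17467 genes, while Arr3 ranked 46 and Cnga3 47, and the nearest was Trav13-5 at 0.085 with a change of -0.17. These ranks include the difference between genotypes too, and cascade genes were not ranked with group means removed.

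For Opn1mw 7209 genes were compared, and the nearest were Olfr315 at a distance of 0.176, 4930563H07Rik at 0.183, Tas2r113 at 0.264, Calhm1 at 0.278, Olfr1408 at 0.291, 2310075C17Rik at 0.293, Gm5321 at 0.318 and AU023762 at 0.335. They include olfactory and taste receptor genes, and 0 of the cone cascade genes. Without a range limit the cascade gene nearest to Opn1mw was Gnat2, at 0.781 and rank 418. The 2 opsins had a distance of 0.704 from each other, and of 0.698 after group means had been removed. After that removal the genes nearest to Opn1sw were C130061O14Rik at 0.143 and Pcdhb3 at 0.202, and Ifnk at 0.035 was nearest to Opn1mw. These distances rest on 6 arrays that share their scaling and are a description.

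**Figure D5:**
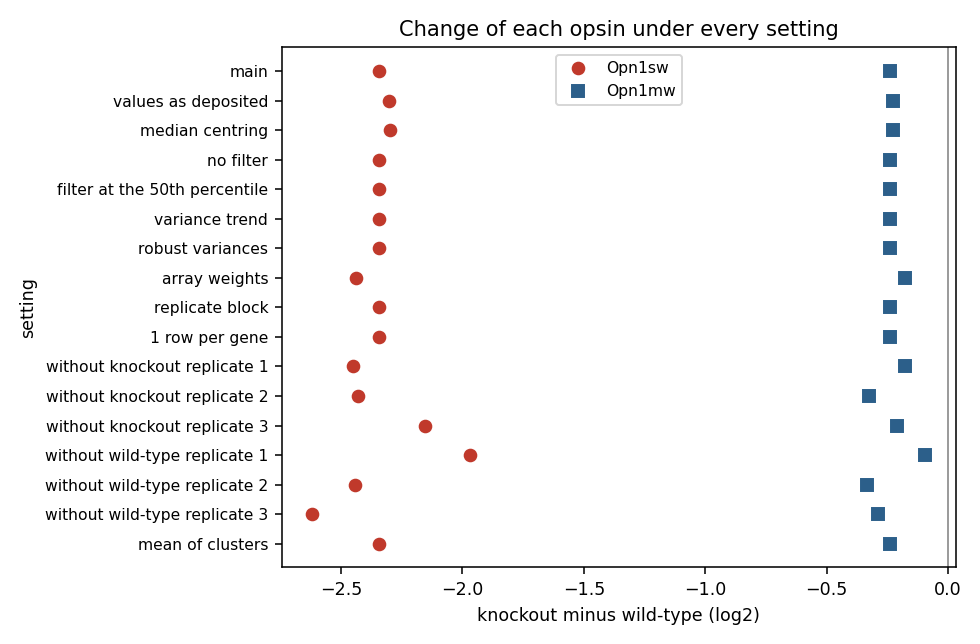
Log2 change of knockout relative to wild-type (horizontal axis) of Opn1sw (circles) and Opn1mw (squares) in the setting as reported and under each alternative (vertical axis). Opn1sw stays between -2.62 and -1.97 and Opn1mw between -0.33 and -0.09.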

How the data were processed

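The deposited table holds 1 log2 value for each of 100843 transcript clusters on 6 arrays; the log2 scale was inferred from a range of 1.48 to 13.86. Per the submitters' processing notes, the tools were Affymetrix Expression Console and PLIER and the build was mm8; for the authors' normalization and background correction, the sources used here name no method. No detection values were used, and the number of arrays limits the precision. Column medians (4.97 to 5.07) differed by 0.103, above a tolerance of 0.1, so arrays were quantile normalized, and clusters at or above the 25th percentile of mean signal (3.70) were kept. Of the clusters 22608 had 1 symbol, of which 22101 were matched to RefSeq (GRCm38.p6) by gene identifier, 1462 had several and 76773 were unnamed here.

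Genotypes were compared in limma 3.58.1 (R 4.3.3; lmFit, eBayes, two-sided, Benjamini-Hochberg over all clusters); SEs and intervals are moderated. Each gene was taken at its brightest kept cluster. The members and the 17 lists (115 genes, 102 measured) were chosen with earlier results of these data known. The naming rule took the opsins, Sall3, the measured members of the cone cascade, other opsin, dorsal and ventral lists, for each remaining list up to 4 genes ranked first by p, neighbours and the 8 most alike genes; for lists of other cell types not every gene it allows is printed. On simulated data with 75632 clusters in 3 runs, log2 changes of 1, 2 and 3 were recovered in 13.3%, 61.3% and 80.7%, and a change of -3 in 84%. The simulated noise was normal and independent between clusters, with no array set apart from the others. These shares therefore need not hold for the real arrays. Same-numbered samples were not taken as pairs, because the correlations of their deviations from the group means were 0.01, -0.09 and 0.08. Python 3.11.15 and matplotlib 3.10.9 made the figures.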

Additional observations from a re-analysis of the deposited data

How the results depend on the processing

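The changes of Opn1sw and Opn1mw and of their difference kept their sign under all 16 alternatives each, and moved by less than the spread between replicates. Alternatives of the filter, the variance model, the replicate block and the choice of cluster could not move these changes. The filter followed normalization, the design is balanced and each opsin has 1 cluster. Only other scalings, array weights and leaving out an array could move them. The changes ranged from -2.62 to -1.97, from -0.33 to -0.09 and from -2.33 to -1.87, and the ends of all 3 ranges came from leaving out an array. With the sample number as a replicate block 0 clusters were called, and the changes of -2.35 and -0.24 were the same by design. Limma called 0 clusters under every alternative at an adjusted p under 0.05, and 4969 at an unadjusted p under 0.05; 0 list genes were called in any setting. With 1 row per gene, 184 genes were higher and 594 lower at the unadjusted threshold, against 95 and 184 in the fit over all clusters. In that fit the variance of each cluster is moderated towards a value estimated from all clusters. For Opn1mw the array left out sets the size of the value, and for dim clusters the distance above background is not known.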
